A study of Mus musculus with 721 samples.

Results

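Secreted antagonists of Wnt and TGF-beta signalling were followed in single cells of the mouse embryo, from the blastocyst to the onset of gastrulation. The set holds 8 genes, chosen by symbol: Cer1, Dkk1, Sfrp1, Sfrp2, Sfrp5, Frzb, Fst and Fstl1. Each symbol matched 1 row, so that 8 of the 24483 gene rows of the count table are described here. All 8 passed the filter on low counts that preceded the tests.

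Wnt ligands bind Frizzled and Lrp receptors and stabilise beta-catenin, whereas Nodal, activins and BMPs, ligands of the TGF-beta family, signal through receptor kinases and Smad proteins. Both pathways are needed for the primitive streak, and their secreted antagonists bind either the ligand or the receptor outside the cell. In the mouse embryo the anterior visceral endoderm (AVE), a patch of the extra-embryonic endoderm that covers the epiblast, is known as a source of such antagonists.

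The study sequenced full-length cDNA of picked single cells from wild type embryos of the strain C57Bl/6Babr. The table holds 721 cells of 37 embryos as the labels number them. They were taken at E3.5 (99 cells), E4.5, E5.5 and E6.5 (250 cells, where some embryos are titled E6.75). A cell had between 66896 and 3792936 counted reads, with a median of 692863. Values are given in CPM, counts scaled to 1000000 counted reads, in sums over the cells of 1 class in 1 embryo, so the embryo is the replicate and n counts embryos.

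The labels give a cell type to 5 cells alone, of 1 E5.5 embryo and titled VE, so classes were rebuilt by clustering without the 8 genes and named from marker lists. E3.5 cells were kept as 1 class of 99 cells and 10 sums. E4.5 gave primitive endoderm-like (PrE-like; 77 cells, 5 sums) and epiblast-like cells (23 cells, 5 sums). Of these, 30 PrE-like and 7 epiblast-like wells were labelled double, and each well is counted as 1 cell here. E5.5 gave 8 endoderm-like cells and otherwise epiblast-like cells (8 sums), and only 1 embryo had enough endoderm-like cells for a sum, the 5 titled VE. E6.5 gave endoderm-like (38 cells, 7 sums), epiblast-like (92 cells on named plates and 79 others, 13 sums) and streak-like cells (25 cells, of which 24 came from 1 embryo, giving 1 sum). The 20 endoderm markers summed to 12030 to 39674 CPM in E6.5 endoderm-like sums and to 606 to 4293 CPM in E6.5 epiblast-like sums. Another 21 cells whose markers went against their cluster were left out. No cell's place in the embryo was recorded, so anterior and other visceral endoderm cannot be told apart except by genes.

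The data bear on promoters only as genes that moved together, so the starts of the most alike pair of members are shown. Across the 49 sums the levels of Cer1 and Sfrp5 correlated with r = 0.81, the highest value for any pair of members. The RefSeq promoter table (GRCm38.p6, 250 bases before to 50 after a gene's start) held 6 of the 8 genes; Sfrp1 and Fst were not in it. Short motifs of 5 kinds were searched on both strands, and each is given with the share of all 27025 promoters of this length that held it. The motif TAATCC, which homeodomain proteins of the Otx and Gsc type bind, was in 7.16% of promoters. The motif AGATAA of zinc finger proteins of the Gata family was in 11.4%. The motif CTTTGA, known for the factors downstream of Wnt (Lef and Tcf proteins), was in 16.2%. The forkhead protein motif TGTTTA was in 13.4%. The motif CAGACA, which is bound by Smad proteins, was in 21.03% of promoters. The 250 bases before the start of Cer1 (chr4:82885152-82885401, minus strand) and of Sfrp5 (chr19:42202253-42202502, minus strand) are printed 5′ to 3′ with matches in capitals:
Cer1: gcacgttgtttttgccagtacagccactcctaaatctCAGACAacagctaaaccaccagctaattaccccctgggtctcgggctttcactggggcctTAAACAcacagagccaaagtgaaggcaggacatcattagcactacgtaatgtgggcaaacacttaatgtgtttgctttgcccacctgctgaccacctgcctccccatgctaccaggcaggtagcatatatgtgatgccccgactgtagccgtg
Sfrp5: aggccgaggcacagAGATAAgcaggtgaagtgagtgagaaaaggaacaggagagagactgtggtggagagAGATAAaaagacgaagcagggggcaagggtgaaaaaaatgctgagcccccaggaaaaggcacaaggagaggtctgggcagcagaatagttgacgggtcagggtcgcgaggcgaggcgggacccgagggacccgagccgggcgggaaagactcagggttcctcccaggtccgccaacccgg

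Counted from the start, Cer1 held the Smad motif at -213 and the forkhead motif, on the other strand, at -153. Sfrp5 held the Gata motif at -236 and at -180. The pair shared none of the 5 motifs. Dkk1 held the Lef and Tcf motif on either strand, at -174 and -117. On the other strand, Frzb held this motif too, at -95, and Sfrp2 held the Otx and Gsc motif at -96 and the Smad motif at -239. Fstl1 held none of the 5 motifs.

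At E3.5, before the lineages part, only Sfrp1 was widely detected. Sfrp1, which binds Wnt ligands through a Frizzled-like domain, lies at chr8:23411502-23449632 (GRCm38, plus strand). Its sums had a lowest value of 42.6, a median of 65.3 and a highest of 289 CPM, and 59 of 99 cells (59.6%) reached 10 CPM. Dkk1, which blocks the Wnt co-receptors Lrp5 and Lrp6 (chr19:30545863-30549665, minus strand), had a count in 4 of 10 sums, with at most 11.4 CPM. The other 6 genes had no count in any of the 99 cells, which together hold 58421534 reads, and 0 of 99 cells allows a share of up to 3.03%.

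At E4.5 Dkk1 set the PrE-like cells apart from the epiblast-like cells. Its PrE-like sums had 125.6, 170.8, 242.3, 259.7 and 278.2 CPM, whereas 4 epiblast-like sums had no count and the other had 4.25 CPM. The groups did not overlap, which held for 11.3% of genes tested, and 73 of 77 PrE-like cells (94.8%, exact 95% interval 87.2 to 98.6) but 1 of 23 epiblast-like cells reached 10 CPM. The log2 fold change was 7.72 ± 1.80 (SE; edgeR quasi-likelihood test with Benjamini-Hochberg adjustment over all genes tested, adjusted p = 0.00472), and Dkk1 passed in all 17 alternatives tried.

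Fstl1, a follistatin-like glycoprotein that binds BMP ligands (chr16:37776873-37836514, plus strand), was detected in most cells of both E4.5 classes. Its PrE-like sums had 39.9, 69.4, 97.5, 151.9 and 155.1 CPM, and its epiblast-like sums 96.8, 101.5, 105.5, 110.2 and 241.02 CPM. The groups overlapped and the log2 fold change was -0.29 ± 0.63 (SE, edgeR, adjusted p = 0.914). Fstl1 reached 10 CPM in 64 of 77 PrE-like and 20 of 23 epiblast-like cells. Fst, follistatin, which traps activins (chr13:114452290-114458951, minus strand), had at most 4.99 CPM in PrE-like sums and 0, 5.15, 12.4, 13.7 and 19.2 CPM in epiblast-like sums. The Fst groups overlapped and the difference did not pass (log2 -2.49 ± 1.37, edgeR, adjusted p = 0.281).

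Of the 8 genes, 2 passed between the E4.5 classes (826 of 16941 genes passed, 4.88%). Dkk1 was higher in PrE-like sums (2.75% of genes were) and Sfrp2 lower (2.13% were). Sfrp2, another Frizzled-related Wnt binder (chr3:83766321-83774316, plus strand), had no count in 5 PrE-like sums and 25 counts in 1 epiblast-like sum (2 of 23 cells had a count and 1 reached 10 CPM), so the call rests on plate P2 embryo 5. The ratio of means was at least 24.4-fold against a floor of 3 counts over the PrE-like group (edgeR, adjusted p = 0.0135), and the adjusted p was 1 without that embryo. With the embryo as a block Dkk1 passed (log2 8.37, edgeR, adjusted p = 0.000558) and Sfrp2 fell under the filter on low counts. Cer1, Sfrp5 and Frzb had at most 20 counts in either group, in at most 1 embryo per group. By unadjusted p the same 2 of 8 genes lay under 0.05, as did 22.6% of all genes tested.

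**Figure D1:**
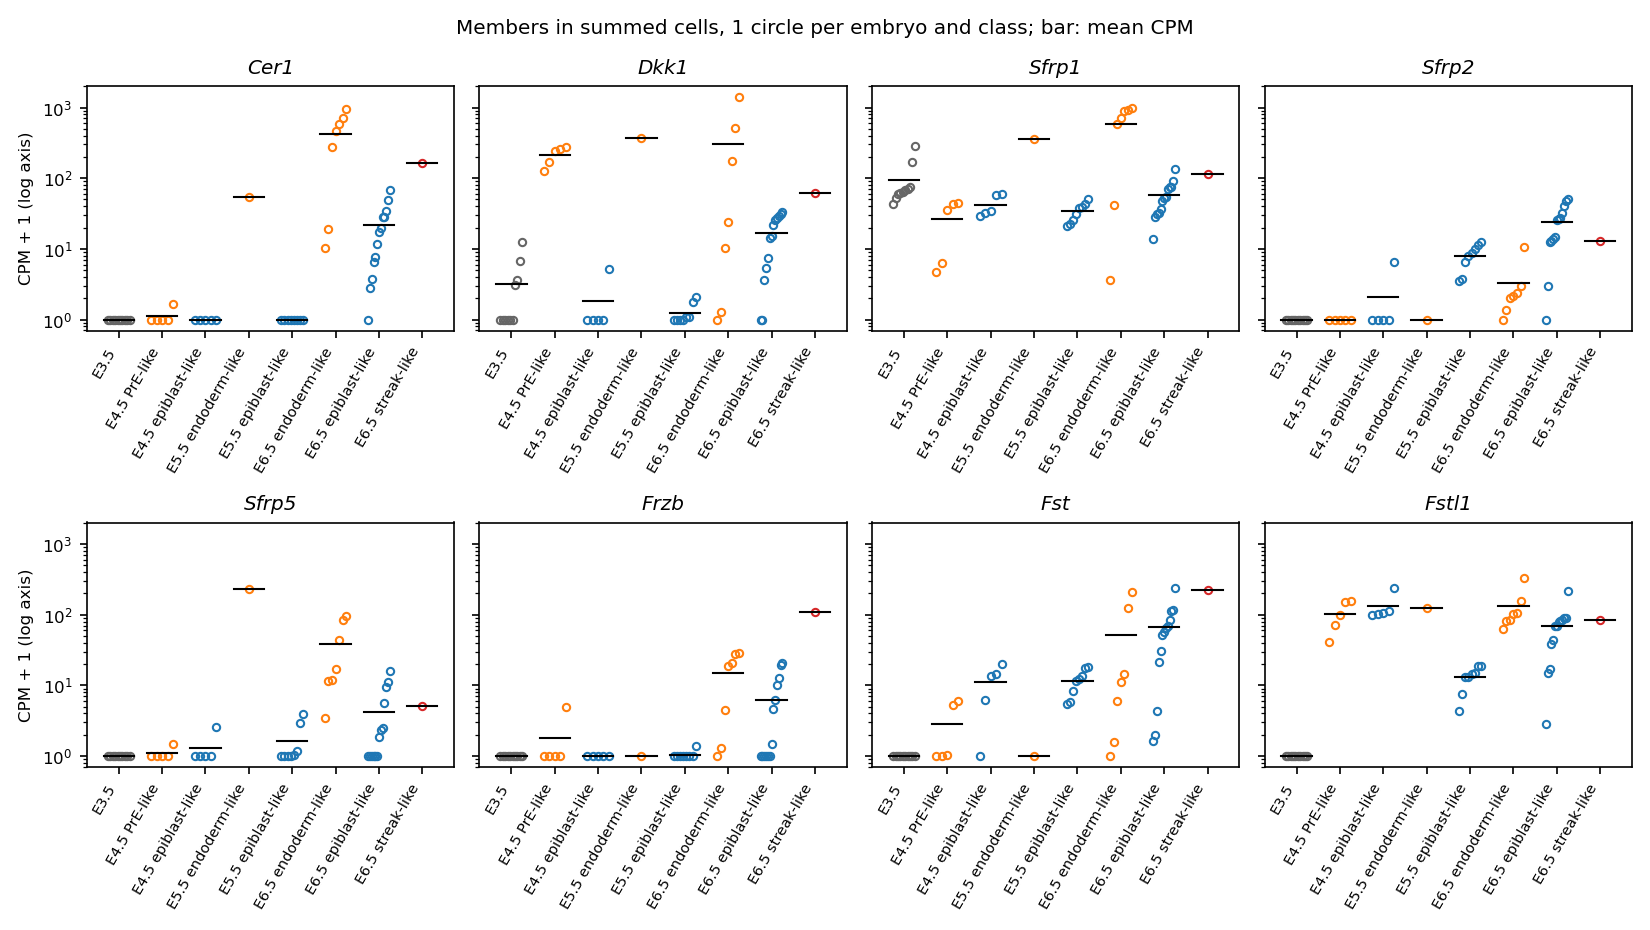
Level of each of the 8 genes (CPM + 1, log axis) in sums of cells by stage and class, 1 circle per embryo and a bar at the mean CPM. Dkk1 lies at 125.6 CPM or more in all 5 PrE-like sums, Fstl1 is at 0 in all E3.5 sums and present in all sums of both E4.5 classes, and Cer1 leaves 0 only in E5.5 endoderm-like and in E6.5 sums, apart from 3 counts in 1 PrE-like sum.

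The few endoderm-like cells at E5.5 held 5 of the genes. In the sum of the 5 cells titled VE, of 1 embryo, Dkk1 had 372, Sfrp1 353, Sfrp5 228.8, Fstl1 121.6 and Cer1 52.5 CPM, and Sfrp2, Frzb and Fst had no count. Over the 8 cells of 4 embryos, 7 reached 10 CPM for Sfrp5, 7 for Sfrp1, 5 for Cer1, 4 for Dkk1 and 4 for Fstl1. Sfrp5 and Cer1 were therefore present in endoderm-like cells at a stage at which no epiblast-like cell had Cer1 and 4 had Sfrp5 at 10 CPM. A lone sum has no replicate, and this class entered no test.

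With all E6.5 embryos pooled, the endoderm-like cells held the highest mean levels of Cer1, Dkk1, Sfrp1, Sfrp5 and Fstl1 among the classes. For Cer1, Dkk1 and Sfrp1 this order rests on the embryos on named plates. Among the embryos without a plate name the lone streak-like sum was above the mean of the 2 endoderm-like sums, with 160.8 against 13.7 CPM of Cer1, 61.5 against 4.59 of Dkk1 and 114.7 against 21.6 of Sfrp1. Those 2 endoderm-like sums are titled E6.75, whereas the streak-like sum is titled E6.5. Between endoderm-like and epiblast-like sums 5 of the 8 genes passed (15.0% of 16941 genes did), of which Cer1, Dkk1, Sfrp1 and Sfrp5 were higher (6.77% of genes were) and Sfrp2 was lower (8.22% were) in endoderm-like sums. None of the 8 parted the 7 from the 13 sums without overlap, as 0.986% of genes tested did. The E6.5 epiblast-like sums also serve as the reference for the streak-like cells.

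Cer1, a secreted binder of Nodal and BMP ligands (chr4:82881751-82885148, minus strand), had 428 ± 351 CPM (SD, n = 7) in endoderm-like and 20.5 ± 20.1 CPM (SD, n = 13) in epiblast-like sums. Endoderm-like sums ran from 9.43 over a median of 459 to 942 CPM, and epiblast-like sums from 0 over 16.1 to 67.3 CPM. Of the endoderm-like sums 5 were above all epiblast-like sums and the other 2 lay among them. The log2 fold change was 4.35 ± 0.77 (SE, edgeR, adjusted p = 0.000297).

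Dkk1 had the widest range among the endoderm-like sums, which ran from 0 over a median of 22.9 to 1404 CPM, whereas its epiblast-like sums ran from 0 over 14.3 to 31.96 CPM. Only 3 endoderm-like sums stood above all epiblast-like sums (log2 4.15 ± 0.98, edgeR, adjusted p = 0.00322), and with the embryo as a block the adjusted p was 0.463.

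Sfrp1 had 593 ± 414 CPM (SD, n = 7) in endoderm-like sums, from 2.66 over 717 to 999 CPM. Epiblast-like sums ran from 12.8 over 50.8 to 135.1 CPM. Of the endoderm-like sums 5 were above and 1 was below all epiblast-like sums (log2 3.30 ± 0.50, edgeR, adjusted p = 7.28e-06), and the adjusted p with the embryo as a block was 0.165.

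Sfrp5, also a Frizzled-related Wnt binder (chr19:42197971-42202252, minus strand), ran from 2.42 over 16.1 to 95.3 CPM in endoderm-like and from 0 over 0.884 to 15.1 CPM in epiblast-like sums. Of the endoderm-like sums 4 were above all epiblast-like ones (log2 3.47 ± 1.23, edgeR, adjusted p = 0.0443). This call was the least stable: Sfrp5 passed in 7 of 27 alternatives, with an adjusted p of 0.0568 by DESeq2 and 0.282 with the embryo as a block. It lost the call without any 1 of 10 embryos (all but plate P3 embryos 7 and 9 and the second titled E6.75), with an adjusted p of 0.0502 without plate P1 embryo 3 and up to 0.115 without plate P2 embryo 6.

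Sfrp2 went the other way. Its epiblast-like sums ran from 0 over 24.5 to 50.6 CPM and its endoderm-like sums from 0 over 1.18 to 9.77 CPM, and 11 of 13 epiblast-like sums were above all endoderm-like ones. The log2 fold change was -3.40 ± 1.10 (SE, edgeR, adjusted p = 0.0302). Without any 1 of the plate P1 embryo 2, P2 embryos 5 and 6, P3 embryo 8 or either embryo titled E6.75, the adjusted p was 0.0532 to 0.0616. At 10 CPM or more it was in 52.6% of epiblast-like cells (interval 44.9 to 60.3) and 3 of 38 endoderm-like cells (7.89%, interval 1.66 to 21.4).

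Frzb, also known as Sfrp3 (chr2:80411970-80447625, minus strand), had 13.8 ± 12.3 and 5.25 ± 7.25 CPM (SD) in endoderm-like and epiblast-like sums, and the difference did not pass (log2 1.33 ± 1.32, edgeR, adjusted p = 0.523). Neither antagonist of the follistatin family passed. Fst had 51.5 ± 81.6 and 65.1 ± 65.2 CPM (log2 -0.35 ± 0.95, edgeR, adjusted p = 0.869). For Fstl1 the values were 130 ± 91.02 and 67.9 ± 54.1 CPM (log2 0.90 ± 0.46, edgeR, adjusted p = 0.157), and Fstl1 passed only without plate P2 embryo 4 (log2 1.23, edgeR, adjusted p = 0.0475).

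The E6.5 embryos fall in 2 sets by their labels: 9 on named plates (P1 to P3) and another 4 whose labels name no plate, among which 2 are titled E6.75. Every endoderm-like sum that lay above all epiblast-like sums for Cer1, Dkk1, Sfrp1 or Sfrp5 came from the plate-named set. Plate-named endoderm-like sums (n = 5) had 272 to 942 CPM of Cer1 and 584 to 999 CPM of Sfrp1. The 2 sums without a plate name, both titled E6.75, had 9.43 and 17.9 CPM of Cer1, 9.19 and 0 CPM of Dkk1, and 2.66 and 40.5 CPM of Sfrp1. Between these sets of endoderm-like sums Sfrp1 passed (log2 5.33 ± 1.01, edgeR, adjusted p = 0.00624) as the only gene of 8 (0.354% of all genes tested passed), and Cer1 had a log2 difference of 5.51 ± 1.61 (edgeR, adjusted p = 0.117).

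Within plates P1 to P3, Cer1 (log2 4.53 ± 0.79), Dkk1 (4.38 ± 1.11) and Sfrp1 (3.58 ± 0.48) passed between endoderm-like and epiblast-like sums (edgeR, adjusted p = 0.000631, 0.00976 and 4.49e-06; 9.40% of genes passed). Sfrp5 and Sfrp2 kept their direction there, with adjusted p of 0.0828 and 0.0767 (edgeR). Without a plate name 0 of 8 passed (0.502% of genes did; 1 of 8, Sfrp2, had an unadjusted p under 0.05, at 0.0181, as did 11.3% of genes). There the log2 fold changes were 0.28 ± 1.20 for Cer1, -1.09 ± 1.82 for Dkk1 and -0.98 ± 0.80 for Sfrp1. The difference of the differences passed for 0 of 8 (0.00% of genes; 3 of 8 and 7.77% of genes had an unadjusted p under 0.05). It was largest for Dkk1 at log2 5.47 ± 2.43 (p = 0.0289, adjusted p = 0.551) and had its lowest p for Sfrp1 at 4.55 ± 1.04 (p = 5.97e-05, adjusted p = 0.160, both edgeR).

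Markers of the endoderm moved with this split. The 5 AVE markers Hhex, Lefty1, Lhx1, Otx2 and Gsc summed to 550 to 2156 CPM in plate-named endoderm-like sums, and to 31.9 and 246.1 CPM in those without a plate name. The 20 endoderm markers summed to 12030 to 20769 CPM and to 34458 and 39674 CPM in the same order. Stage title, plate and the part of the endoderm that was picked cannot be told apart here.

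**Figure D2:**
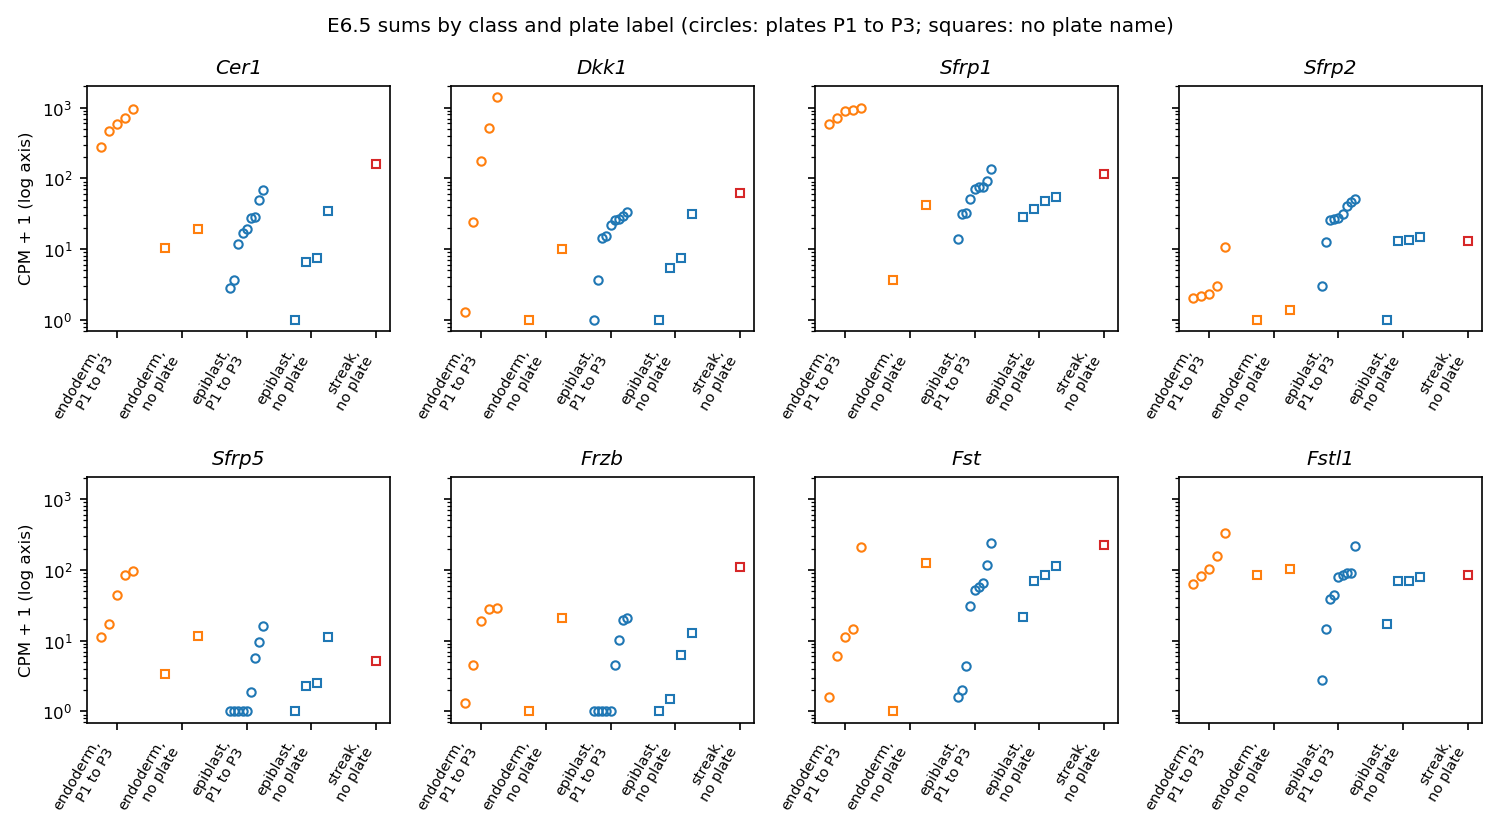
E6.5 sums of each gene (CPM + 1, log axis) by class and plate label, with circles for plates P1 to P3 and squares for embryos with none. Circles of endoderm-like sums lie at 272 CPM or more for Cer1 and 584 CPM or more for Sfrp1, above all epiblast-like sums, whereas squares of both classes overlap.

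Streak-like cells, with the mesoderm genes T and Mesp1 in 23 of 24 cells each, held all 8 of the genes. Their lone sum had 222.6 CPM of Fst, 160.8 of Cer1, 114.7 of Sfrp1, 83.3 of Fstl1, 61.5 of Dkk1, 11.8 of Sfrp2 and 4.09 of Sfrp5, and 1706 counts of Frzb among 15651428. For Frzb, Cer1 and Dkk1 this sum was above all 13 epiblast-like sums, whose highest values were 19.6, 67.3 and 31.96 CPM, and the same held for 11.4% of all genes tested. The log2 fold changes were 4.29 ± 2.04 for Frzb, 2.88 ± 1.26 for Cer1 and 1.83 ± 1.78 for Dkk1 (SE). None of the 8 passed (0.100% of genes tested did; adjusted p of 1 for each by edgeR and by DESeq2). At an unadjusted p under 0.05 were 2 of 8 by edgeR, Cer1 and Frzb, and 0 of 8 by DESeq2 (3.55% of genes by edgeR), and 1 sum against 13 cannot reach an exact permutation p under 0.0714.

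The streak-like sum came from an embryo without a plate name, and against the epiblast-like sums of that set alone the log2 fold changes were 3.79 for Cer1 and 4.60 for Frzb (edgeR, adjusted p = 1 for both).

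The embryo that gave 24 streak-like cells also gave 5 epiblast-like cells, which differed from them within 1 embryo. It gave 1 endoderm-like cell too, with 233.3 CPM of Cer1, 51.3 of Dkk1, 65.3 of Sfrp1 and 4.67 of Frzb. Cer1 reached 10 CPM in 23 of 24 streak-like and 0 of 5 epiblast-like cells, and Frzb did so in 23 and in 0. Neither gene had a count in those 5 epiblast-like cells. Dkk1 was at 21.9 to 170.1 CPM in the 24 streak-like cells and at 0 to 19.07 CPM in the 5, so that the ranges did not overlap. Fst had a median of 182.4 CPM (1.11 to 676) against 31.2 CPM (0.788 to 56.2), and Fstl1 of 100.9 CPM (14.5 to 208.7) against 11.4 CPM (1.18 to 61.04). Sfrp2 medians were 6.72 and 8.27 CPM. Cells of 1 embryo are not replicates, so no test was made.

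Endoderm genes were read in the same streak-like cells. The 20 endoderm markers summed to 3750 CPM there, within the range of all epiblast-like sums (606 to 4293 CPM). It was above all epiblast-like sums without a plate name, the set of this embryo, which ran from 798 to 2642 CPM. Ttr, a transport protein of the visceral endoderm, had a median of 548 CPM per streak-like and 123.4 CPM per epiblast-like cell of the embryo, and the apolipoprotein gene Apoa1 425 and 107.3 CPM. Of the AVE markers, Hhex had 18.1 and Lhx1 214.5 CPM in the streak-like sum, above their means of 1.55 and 12.5 CPM in epiblast-like sums. Otx2 (165.5 CPM), Gsc (7.35) and Lefty1 (0.831) were below theirs, which were 331.9, 8.96 and 11.2 CPM. The part of endoderm RNA in the Cer1 of these cells was not tested.

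**Figure D3:**
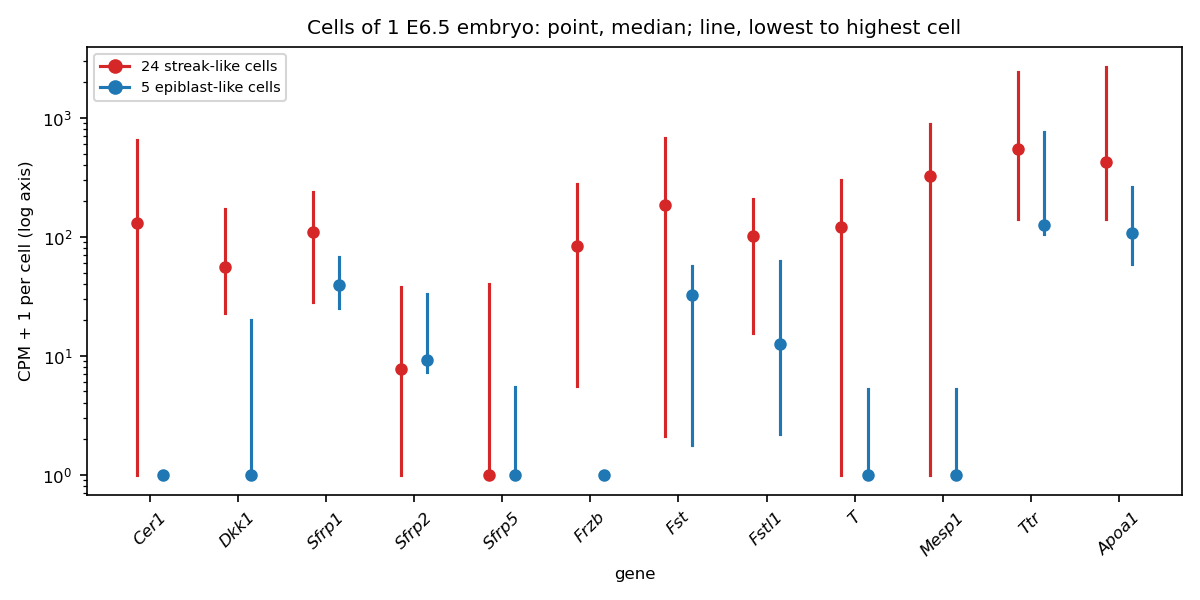
Levels per cell (CPM + 1, log axis) in the E6.5 embryo with most streak-like cells: points are medians and lines run from the lowest to the highest of 24 streak-like (red) and 5 epiblast-like (blue) cells. Cer1 and Frzb are at 0 in all 5 epiblast-like cells, and the Sfrp2 ranges overlap.

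Followed along the endoderm, Dkk1 and Fstl1 rose by E4.5, and Cer1, Sfrp1 and Sfrp5 were higher at E6.5 than at E4.5. The lone E5.5 sum entered no test. Its 228.8 CPM of Sfrp5 lay above all E6.5 endoderm-like sums (2.42 to 95.3 CPM). For Cer1 (52.5 CPM) and Sfrp1 (353 CPM) it lay within their ranges. The stage comparisons share sums with one another and with those between classes. Each stage came from its own embryos. Per the study's methods, the dissection changed between stages, and E6.5 cells were dissociated with another reagent. Stage therefore cannot be told apart from embryo set and preparation in the stage comparisons. From E3.5 to PrE-like sums 5 of 8 genes passed (18.1% of genes did), 4 higher (13.1% were) and 1 lower (5.02% were). Dkk1 rose from 2.17 ± 3.74 (SD, n = 10) to 215.3 ± 64.6 CPM (SD, n = 5; log2 6.57 ± 1.23, edgeR, adjusted p = 8.47e-05). Fstl1 rose from no count to 102.8 ± 50.6 CPM, at least 2001-fold over a floor of 3 counts in the E3.5 group (edgeR, adjusted p = 4.48e-15). Sfrp1 fell from 94.5 ± 76.6 to 25.9 ± 19.8 CPM (log2 -1.81 ± 0.65, edgeR, adjusted p = 0.0401), a call kept in 13 of 25 alternatives. Without any 1 of the E3.5 plate P8 embryos 1 and 4, the E4.5 plate P1 embryo 2 and the P2 embryos 3 and 5, its adjusted p was 0.0564 to 0.1219. Fst (at least 36.5-fold) passed at a mean of 1.88 CPM, and Frzb (at least 15.5-fold) on 20 counts of plate P2 embryo 3, without which its adjusted p was 1.

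From PrE-like to E6.5 endoderm-like sums again 5 of 8 passed (10.2% of genes did), and all 5 were higher (3.85% were). Cer1 rose from 3 counts in 1 of 5 sums to 428 ± 351 CPM (edgeR, adjusted p = 9.88e-06), and over the pooled counts of both groups its ratio was 9244 (exact 95% interval 3162 to 44829). Sfrp5 rose from 3 counts in another PrE-like sum to 37.1 ± 37.7 CPM (edgeR, adjusted p = 0.0140), with a pooled ratio of 1077 (interval 368 to 5228). Both intervals cover the counting error of reads only and not the spread between embryos. Neither gene had overlapping groups (6.74% of genes tested had none). Sfrp1 rose with a log2 fold change of 4.52 ± 0.77 and Fst with 4.84 ± 1.47 (edgeR, adjusted p = 6.59e-05 and 0.0283). Without any 1 of the E4.5 plate P1 embryo 1, the P2 embryos 4 and 5 or the E6.5 plate P3 embryo 7, the adjusted p of Fst was 0.0565 to 0.0715. Sfrp2 was at least 48.9-fold higher at a mean of 2.24 CPM. Dkk1 (log2 0.48 ± 1.22) and Fstl1 (0.33 ± 0.59) did not pass (edgeR, adjusted p = 0.905 and 1). Frzb had an adjusted p of 0.178, and 0.0260 without the E4.5 plate P2 embryo 3 (edgeR). With only the 2 sums without a plate name at E6.5, 0 of the 8 passed in edgeR, and 4 of 8 (Cer1, Dkk1, Sfrp5 and Fst) had an unadjusted p under 0.05, as did 14.8% of the 16382 genes in that fit. Sfrp1 there had a log2 fold change of -0.32 and Dkk1 of -5.51.

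In the epiblast, Fstl1 rose by E4.5, fell by E5.5 and rose again by E6.5. As in the endoderm, stage and preparation cannot be told apart here. Between E3.5 and E4.5 epiblast-like sums 3 of 8 passed, all higher (18.5% of genes passed and 12.4% were higher): Fstl1 (at least 2551-fold), Fst (at least 196.7-fold) and Sfrp2 (at least 21.8-fold, on the 25 counts of plate P2 embryo 5 named above, without which its adjusted p was 1). From E4.5 to E5.5 Fstl1 fell from 130.99 ± 61.7 (SD, n = 5) to 12.1 ± 5.04 CPM (SD, n = 8) without overlap (log2 -3.32 ± 0.58, edgeR, adjusted p = 0.000222). The groups of 9.03% of genes tested did not overlap. Fstl1 was the only gene of 8 to pass (5.11% of genes did and 2.71% were lower) and passed in all 23 alternatives. Fst had 10.1 ± 7.55 and 10.5 ± 4.79 CPM at these stages (log2 0.13 ± 1.15, edgeR, adjusted p = 1), and Sfrp2 1.12 ± 2.50 and 6.95 ± 3.27 CPM (log2 2.59 ± 1.27, edgeR, adjusted p = 0.232, and 0.0103 without plate P2 embryo 5).

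From E5.5 to E6.5, 4 of 8 passed in epiblast-like sums, all higher (11.5% of genes passed and 5.01% were higher). Cer1 rose from no count in 8 sums to 20.5 ± 20.1 CPM, at least 1478-fold (edgeR, adjusted p = 1.28e-06). Dkk1 rose from 0.253 ± 0.430 to 15.6 ± 11.9 CPM (log2 5.90 ± 1.27, edgeR, adjusted p = 0.00123), and Frzb from 4 counts in all to 5.25 ± 7.25 CPM (log2 6.72 ± 1.83, edgeR, adjusted p = 0.0136). Fstl1 rose again, to 67.9 ± 54.1 CPM (log2 2.45 ± 0.50, edgeR, adjusted p = 0.000797). Of the 13 E6.5 sums, 12 were above all E5.5 sums for Cer1, 11 for Dkk1, 7 for Frzb and 10 for Fstl1, so that the groups overlapped for each (1.91% of genes tested did not overlap). Plate-named and other E6.5 epiblast-like sums did not differ for any of the 8 past the limits (0.826% of genes passed), and with only the 4 embryos without a plate name Frzb no longer passed (edgeR, adjusted p = 0.0778). Endoderm genes rose in these sums as well. The 20 endoderm markers summed to 489 to 840 CPM in E5.5 and to 606 to 4293 CPM in E6.5 epiblast-like sums. Mean Ttr went from 4.39 to 479 CPM and mean Apoa1 from 7.29 to 272 CPM. The part of endoderm RNA in the members of these sums was not tested.

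Shares of cells were read beside the levels. At 10 CPM or more Cer1 was in 22 of 38 E6.5 endoderm-like cells (57.9%, interval 40.8 to 73.7), 32.2% of epiblast-like cells (interval 25.2 to 39.7) and 23 of 25 streak-like cells (interval 73.97 to 99.02%). The plate sets differed: on plates P1 to P3 the shares were 73.1% of endoderm-like and 42.4% of epiblast-like cells, and without a plate name, where all streak-like cells belong, 25% and 20.3%. With each cell thinned to 300000 counts, the shares with 3 counts or more were 55.6% (of 36 cells), 33.97% and 90% (of 20 cells) in these classes. Cer1 reached 10 CPM in no cell at E3.5 (allowing up to 3.03%), in PrE-like cells (3.90%) and in the epiblast-like cells of E4.5 (13.04%) or E5.5 (1.16%). Sfrp1 reached 10 CPM in at least 41.6% of the cells of every class. Reads carry no molecular tags, so intervals and limits cover counting error only.

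**Figure D4:**
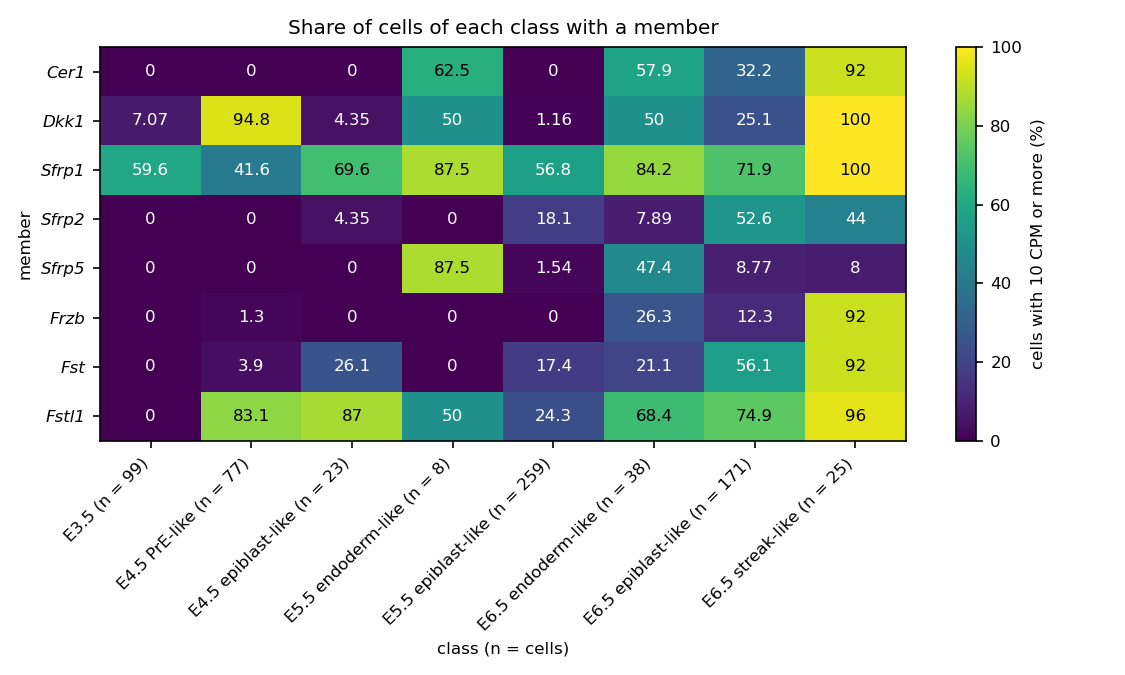
Percent of cells with 10 CPM or more of each gene (rows) in each class (columns, n cells), with the value printed in each field. Sfrp1 is the only gene over 40% in all 8 classes, and Frzb and Fst are highest in streak-like cells, at 92%.

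Most single endoderm-like cells held several of the genes. In the 26 plate-named cells a cell held a median of 4 members at 10 CPM or more (2 to 6), and in the 12 others a median of 3 (0 to 5), with 2 cells that held none. On named plates Sfrp1 was in all 26 cells and Cer1 in 19, among which 14 also had Dkk1 and 5 did not, while 2 cells had Dkk1 without Cer1. Hhex reached 10 CPM in 16 of the 19 cells with Cer1 and 1 of 7 without, Lefty1 in 13 and 1, Gsc in 15 and 2, Lhx1 in 19 and 5, and Otx2 in all cells of both kinds. Without a plate name Cer1 was in 3 of 12 cells, of which 1 had Hhex, 1 Gsc, 2 Lhx1, 2 Otx2 and none Lefty1. The epiblast-like cells were 55 with Cer1 and 53 plate-named and 63 other cells without. Hhex was in 4 of the 55 and 10 of the cells without Cer1, Lefty1 in 16 and 24, Gsc in 13 and 19, Lhx1 in 27 and 21, and Otx2 in all but 1 cell of either kind. In the 23 streak-like cells with Cer1, Hhex was in 12, Lefty1 in 1, Gsc in 5, and Lhx1 and Otx2 in all 23. Frzb and Fst were together in 22 of 25 streak-like, 20 epiblast-like and 1 of 38 endoderm-like cells. Cells of an embryo share their source, and these counts are descriptions.

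Levels of different genes were set side by side as mean CPM per kilobase of exon. In E6.5 endoderm-like sums the order was Cer1 (246.2), Sfrp1 (135.7), Dkk1 (125.5), Fstl1 (26.5), Sfrp5 (19.5), Fst (11.2), Frzb (4.25) and Sfrp2 (1.04), with SDs of 201.9, 94.7 and 214.3 for the first 3. These SDs are over embryos, and differences between genes within an embryo were not tested. In E6.5 epiblast-like sums no gene stood out, and Fst (14.2), Fstl1 (13.8), Sfrp1 (12.9), Cer1 (11.8) and Sfrp2 (10.5) lay within an SD of one another. The lone streak-like sum had Cer1 at 92.5, Fst at 48.5 and Frzb at 33.7 CPM per kilobase. In PrE-like sums Dkk1 led at 88.7 ± 26.6, over Fstl1 at 20.9 ± 10.3 CPM per kilobase (SD, n = 5).

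The rest of both pathways was counted from lists of genes, to be read against all genes tested, of which 15.0% passed, 6.77% higher and 8.22% lower, and 33.9% had an unadjusted p under 0.05. Between E6.5 endoderm-like and epiblast-like sums, 0 of 8 other tested Wnt antagonists passed (edgeR; 3 of 8 had an unadjusted p under 0.05), and 4 of 11 other TGF-beta antagonists were higher and 2 lower. Among these, Nog, which binds BMPs, rose most (8.84 ± 14.3 against 0.114 ± 0.388 CPM, log2 5.83 ± 1.49, edgeR, adjusted p = 0.00677) and Dand5, a relative of Cer1, fell most (0.173 against 7.63 ± 15.2 CPM, log2 -5.32 ± 1.76, edgeR, adjusted p = 0.0310). Of 16 Wnt ligands 1 was higher and 2 lower, of 15 Wnt receptors 1 and 4, and of 9 Wnt target genes 1 and 2. Of 13 TGF-beta ligands 2 were higher and 2 lower, and of 11 receptors and co-receptors 0 and 1, the latter being the Nodal co-receptor Tdgf1 (42.8 ± 47.3 against 368 ± 187.9 CPM, edgeR, adjusted p = 0.000130). Median log2 fold changes of the lists, with genes at 0 in 1 group set to their bound and genes at the floor in both left out, ran from -1.07 (TGF-beta ligands) to 0.90 (TGF-beta receptors). For the other Wnt antagonists the median was 0.44 over 6 genes in that way and -2.08 over all 8 fitted values. The median of fitted values over all genes tested was -0.28.

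At E4.5, where 4.88% of all genes passed and 22.6% had an unadjusted p under 0.05, 0 of 8 other Wnt antagonists (edgeR; 3 of 8 at an unadjusted p under 0.05) and 1 of 11 other TGF-beta antagonists passed, the BMP-binding Bmper at 57.01 ± 29.1 CPM in PrE-like and no count in epiblast-like sums (at least 293-fold, edgeR, adjusted p = 0.00553). In the epiblast from E4.5 to E5.5 the Wnt-inactivating enzyme Notum fell from 31.3 ± 17.6 to 0.0886 ± 0.251 CPM (log2 -8.24 ± 1.88, edgeR, adjusted p = 0.00520), as 1 of 8 other Wnt antagonists that passed (5.11% of all genes did). Between streak-like and epiblast-like sums 1 gene of the 7 lists passed (0.100% of all genes did), the Wnt target Lgr5, with 1 count over the epiblast-like sums and 11.4 CPM among streak-like cells (ratio of pooled counts 1511, interval 268 to 59992; edgeR, adjusted p = 0.0200). Of the other lists none passed, and 0 to 3 genes of each had an unadjusted p under 0.05 (3.55% of all genes).

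The genes whose log2 level followed each member most closely over the 49 sums were sought among the 16941 genes tested, for members with a mean of at least 5 CPM in some class. They were Lhx1 (r = 0.91) and Mixl1 (0.87) for Cer1, Srgn (0.80) and Foxa2 (0.79) for Dkk1, and Tpm3 (0.67) and Pdpn (0.66) for Sfrp1. For Sfrp2 they were St8sia3 (0.89) and Amotl1 (0.87), and for Sfrp5 Lhx1 (0.81) and Bmp2 (0.80). Frzb was followed by Prss12 (0.74) and 1500016L03Rik (0.74), Fst by Rab25 (0.81) and Ms4a4d (0.80), and Fstl1 by Car2 (0.89) and Abcg2 (0.85). The sums share stages, embryos and depth, so these correlations are descriptions.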

How the data were processed

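Cells were sequenced by full-length single-cell RNA-seq. The authors deposited raw read counts per gene and cell (1 table of 24483 rows on chromosomes 1 to 19, GRCm38). Per the study's methods, reads were trimmed, aligned with HISAT2 and counted per gene with SeqMonk, and cells of low quality, trophoblast cells and wells of more than 2 cells were left out. The labels name Trim Galore 0.4.3 and HISAT2 2.0.5. No setting for strand was given in the sources used here, and full-length cDNA of this kind carries no strand mark. Depth per cell is given with the data below and limits low genes: a sum's value under about 1 CPM rests on few counts.

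Cells were clustered by consensus k-means over 20 starts (genes in 6 to 94% of cells; 8 clusters over all cells, 5 at E6.5), leaving out 105 genes (members, pathway lists and AVE markers), and named from marker lists; lists for trophoblast, parietal endoderm and decidua or blood were also read. In E6.5 endoderm-like sums these summed to 1.40 to 151, 5.89 to 77.8 and 0 to 43.4 CPM. Wells labelled double were kept, and an alternative used single wells only. Counts were summed per class and embryo where 3 or more cells were present (49 sums). The E3.5 cells without an embryo number (9) were taken as 1 embryo. edgeR 4.0.16 (TMM, its filter on low counts, 16941 genes, quasi-likelihood test, Benjamini-Hochberg adjustment) was fitted on all classes together. Passing genes had an adjusted p of 0.05 or less together with a log2 change larger than 2 (between the E4.5 classes) or 1 (elsewhere). The lone streak-like sum was assumed to vary like the others. Intervals are exact (Clopper-Pearson, 95%). Those on ratios of pooled counts treat reads as independent draws and do not cover the spread between embryos. Correlations used log2(CPM + 1). The test was tested on simulated data: of 200 genes changed 8-fold, 195 were recovered for E6.5 endoderm-like against epiblast-like sums, 113 at E4.5 and 26 for the streak-like sum. The changed genes were drawn above a floor on counts, with the same dispersion for all genes and no plate effect. These numbers therefore do not cover members with few counts or with a split by plate.

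Named genes are the members, the largest rise and fall of each list, and the 2 genes most like each member. The members and lists were chosen with earlier results of these data known. Fits restricted to each set of plates were planned. A fit that splits the E6.5 classes by plate label gave the log2 fold changes with SE within each plate set and between the sets. This split fit and the fits that keep the cells set against their class were added after values had been seen. The classes of a stage come from the same embryos, so the embryo number pairs them by origin. Residuals of same-embryo sums correlated with r of 0.0157 to 0.0952 (5 pairs, E4.5) and 0.0372 to 0.214 (7 pairs, E6.5). The r was highest with the sum of the same embryo in 5 of 5 and 5 of 7 pairs. The main fit did not use this pairing, and the embryo as a block was an alternative. The row start of Fst in the table differs from GENCODE vM21, from which coordinates and exon lengths were taken, and the other 7 match. R 4.3.3, DESeq2 1.42.0 and Python 3.11.15 were used.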

Additional observations from a re-analysis of the deposited data

Results flagged for a closer look

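Among 30 sets of 5 to 10 sums of a gene in a class, 13 had 1 sum flagged as far from the others. The rule flags about 1 in 20 sets of normally spread values, and sums with many zeros do not spread so. The 13 are thus not read as an excess over chance. Many of the 13 rest on few counts, since the other sums of the set had no count.

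At E3.5, Sfrp1 was at 289 CPM in plate P8 embryo 1 (next 168.4 CPM) and Dkk1 at 11.4 CPM in plate P9 embryo 7 (next 5.64 CPM). Among PrE-like sums, Cer1 had 0.654 CPM in plate P1 embryo 2 and Sfrp5 0.488 CPM in plate P1 embryo 1, each 3 counts, and Frzb had 3.99 CPM (20 counts) in plate P2 embryo 3. The other PrE-like sums had none of these genes.

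The epiblast-like sum of plate P2 embryo 5 at E4.5 stood apart for 4 genes. It had 241.02 CPM of Fstl1 (next 110.2 CPM), 5.59 CPM of Sfrp2 (25 counts), 4.25 CPM of Dkk1 (19 counts) and 1.57 CPM of Sfrp5 (7 counts), and the last 3 were absent from the other 4 sums. At E5.5, Frzb had 0.404 CPM (4 counts) in the epiblast-like sum of embryo 4 of plates P7, P4 and P5, and none elsewhere.

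At E6.5 a different endoderm-like sum stood out for each of 3 genes. Dkk1 had 1404 CPM in plate P2 embryo 5 (next 519 CPM), Fstl1 326 CPM in plate P1 embryo 2 (next 153.4 CPM) and Sfrp2 9.77 CPM in plate P3 embryo 7.

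The cells left out because their markers went against their cluster also held members. The 5 such cells at E4.5 had over 3 counts of 4 members, with Fstl1 at 86.01 CPM in their sum. The 16 such cells at E6.5 had over 3 counts of all 8, with Cer1 at 40.7 and Sfrp1 at 98.2 CPM in their sum, and 6 of them reached 10 CPM for Cer1.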

How the results depend on the processing

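Of 1138 recomputed log2 fold changes of members, 1061 were counted as kept, 60 lost and 6 gained the call, and 11 turned. Kept values stayed on their side of the threshold. They include changes of direction by less than 1 SE where neither fit passed, such as Fst between the E6.5 classes (log2 -0.35, at most 0.15). Values that changed direction by 1 SE or more, or with a call in either fit, were counted as turned. Of 200 counts of passing members, 22 fell and 2 rose by over 1.5 times. For E4.5 PrE-like against epiblast-like sums the count of 2 became 1 with only the compared groups, with glmTreat, with single wells and with the embryo as a replicate block, and was 1 to 2 with 1 embryo left out. For E6.5 endoderm-like against epiblast-like sums the count of 5 became 3 with glmTreat, 2 with sums of at least 5 cells, 2 with the replicate block (Cer1 and Sfrp2), 3 on plates P1 to P3, 0 without a plate name, 3 without E6.75, and 3 to 5 with 1 embryo left out, with 3 without plate P1 embryo 2, P2 embryos 5 and 6, P3 embryo 8 or E6.75 embryo 1. From E3.5 to PrE-like sums the 5 became 2 with only the compared groups, 3 with sums of at least 5 cells, and 3 to 5 with 1 embryo left out (3 without E4.5 plate P2 embryo 3). From PrE-like to E6.5 endoderm-like sums the 5 became 3 with only the compared groups and 0 without a plate name. From E3.5 to E4.5 epiblast-like sums the 3 became 1 with only the compared groups. From E4.5 to E5.5 the 1 became 2 with single wells, and was 1 to 2 with 1 embryo left out (2 without E4.5 plate P2 embryo 5). Pairs of a member and a class with at least 50% of cells at the limit fell to 15 at 50 CPM. The replicate block changed no other member's call.

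None of the 11 turned values passed in its new direction, but 3 of the calls they turn from had passed: Dkk1 and Sfrp1 between the E6.5 classes, and Sfrp1 from PrE-like to E6.5 endoderm-like sums. Without a plate name the log2 fold changes were -1.08 for Dkk1 and -0.96 for Sfrp1 between E6.5 endoderm-like and epiblast-like sums, and -5.51 and -0.32 against PrE-like sums. Fstl1 had -0.84 between streak-like and epiblast-like sums with sums of 1 cell allowed, and -0.27 from PrE-like to E6.5 endoderm-like sums of at least 5 cells. Dkk1 had 0.90 from E3.5 to E4.5 epiblast-like sums with Ward classes. From E4.5 to E5.5 it had 5.05 with single wells and -2.54 to 4.57 with 1 embryo left out. For Sfrp5 between the E4.5 classes the value was 3.44 with single wells and -5.31 to 3.42 with 1 embryo left out, on 3 and 7 counts. Each of these causes was not tested.

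Counts over all genes moved further. Between the E4.5 classes 826 became 1279 by DESeq2, 1.13% of genes by glmTreat and 416 to 471 without any 1 of the 5 E4.5 embryos. Between the E6.5 classes 2540 became 872 with only the compared groups, 599 with sums of at least 5 cells and 470 with the block. The 17 for the streak-like sum ranged from 1 to 96 over all settings. DESeq2 moved the share of calls that were higher to 59.4% from E3.5 to PrE-like, 48.3% from PrE-like to E6.5 endoderm-like, 53.05% from E3.5 to E4.5 epiblast-like, 61.1% from E4.5 to E5.5 and 54.2% from E5.5 to E6.5 epiblast-like sums. Depth limits genes under about 1 CPM.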
